A study of Mus musculus with 4 samples.

Results

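The region described here is the stretch of mouse chromosome 6 that surrounds Met, the gene of the receptor tyrosine kinase that binds hepatocyte growth factor. Its members were the gene rows lying between 13.8 and 31 Mb (mm10) that reached 1 FPKM (mapped fragments scaled by transcript length and library size) in at least 2 of 4 tumors. The stretch held 97 of the 23746 rows of the tables. Wnt2, Wnt16, Smo and Lep were left out by name, 48 rows stayed below the level, and 45 genes remained, against 12752 genes that reached it anywhere in the genome and 580 on the rest of chromosome 6. The interval was chosen because its genes differed between these very tumors, and the members were selected on their measured FPKM, so the differences between genotypes below are a description and support nothing by themselves.

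The tumors were primary mammary tumors of female mice, and their polyadenylated RNA was sequenced. Tumors 26048 and 26050 came from WapCre;Brca1;p53 mice, the double-mutant genotype, and tumors 26043 and 26044 from WapCre;Rank;Brca1;p53 mice, the triple-mutant genotype. In both genotypes Cre recombinase, driven by the Wap milk-protein promoter in luminal and basal mammary epithelium, removed floxed Brca1 and p53. In the triple-mutant mice it also removed floxed Rank, the receptor of the cytokine RANKL, so Rank is the allele by which the genotypes differ. No age was given for the sequenced mice, each genotype had 2 tumors, and nothing in the labels paired them. The study calls the genotypes littermates, so tumors may share a litter across genotypes, but which of them do is not given in the labels. The tumors also hold cells in which Cre is not active.

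Met is made by epithelial cells, and its ligand comes mostly from neighbouring stromal cells. Binding makes the receptor phosphorylate its own tail, where adaptors such as Gab1 and Grb2 dock and lead to the Ras and phosphatidylinositol 3-kinase pathways. The pathway drives branching of mammary epithelium and scattering of epithelial cells. The neighbours of Met along the chromosome are members by position and level, not by pathway. They include caveolins, actin regulators, metabolic enzymes, subunits of the respiratory chain and of the proton pump, and the imprinted gene Mest.

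Rank (Tnfrsf11a) stood at 2.07 and 0.962 FPKM in the triple-mutant tumors 26043 and 26044, and at 10.6 and 11.9 FPKM in the double-mutant tumors 26048 and 26050, which was the order of the labels. Brca1 lay between 3.26 and 5.69 FPKM in the 4 tumors, and Trp53 between 15.7 and 149.7. The summed level of 5 luminal markers was 2747, 403, 2158 and 1907 FPKM in 26043, 26044, 26048 and 26050, so that 26044 stood apart. Of the 5, 4 were higher in both double-mutant tumors, among them Epcam and Krt8. Krt19 went the other way, at 1154 and 194 FPKM in 26043 and 26044, and 139 and 56.7 in 26048 and 26050. Of 5 basal markers, 4 were higher in both triple-mutant tumors. Their summed level was 1304 and 1111 FPKM in the triple-mutant tumors and 67.9 and 43.2 in the double-mutant tumors. The makeup of these sums differed between tumors. Acta2 was at 64.8 and 898 FPKM in 26043 and 26044, and Krt5 at 596 and 114. In 26048 and 26050 Acta2 was at 59.7 and 31.8 FPKM, and Krt5 at 1.15 and 2.06. Of 5 fibroblast markers 3 were higher in both double-mutant tumors, with sums of 173 and 97.9 FPKM in triple-mutant and 746 and 342 in double-mutant tumors. These sums came mostly from Col1a1 and Col1a2. Pdgfra went the other way, at 2.90 and 19.1 FPKM in triple-mutant and 1.63 and 1.44 in double-mutant tumors, and Dcn overlapped. The 4 adipocyte markers summed to 7.58, 261, 1389.8 and 31.5 FPKM, highest in 26048, with Adipoq and Plin1 at 0 in 26044. Endothelial sums ranged from 24.7 to 78.1 FPKM, leukocyte sums from 40.3 to 73.3 and muscle sums from 0.188 to 4.99. Fewer cells of a type and less RNA per cell cannot be told apart in bulk tumors, and the part of cell makeup in the levels below was not tested.

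Most of the 45 genes were higher in double-mutant tumors, at places that were partly shared and partly different between those tumors. Both double-mutant tumors lay above both triple-mutant tumors for 26 members (57.8%), where 22.9% of all genes tested did so. Among the 26, A430107O13Rik, Fam71f2 and 1700023L04Rik were under 1 FPKM in both triple-mutant tumors. Their membership itself required both double-mutant tumors to lie above. Both triple-mutant tumors lay above both double-mutant tumors for 2 members, Cav1 and Mest (4.44%, against 21.3% of all genes), and 17 members overlapped. The median difference of double-mutant minus triple-mutant mean log2(FPKM + 1) was 2.03 over the members, 0.02 over all genes tested and -0.08 over the rest of chromosome 6. The members made up 0.283% and 0.186% of all FPKM in tumors 26043 and 26044, 0.964% in 26048 and 2.03% in 26050.

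A model across all 12752 genes (limma on log2(FPKM + 1), Benjamini-Hochberg adjustment) called none of them between genotypes at an adjusted p under 0.05. The background was thus 0.0%, and 0 of 45 members were called. The study itself used a count model on read counts, which were not used here, so 0 calls describes this model on FPKM. The smallest adjusted p of a member was 0.143. Without adjustment 12 members and 1252 of all genes had a p under 0.05. With 2 tumors against 2, an exact permutation test of a single gene cannot go below p = 0.333.

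The excess lay in the double-mutant tumors taken one by one. A member was at least 1 log2 unit above the mean of the other genotype in 1 case for tumor 26043 (9.61% of all genes) and in 1 case for 26044 (11.0% of all genes). For 26048 it was so for 25 members (7.35% of all genes) and for 26050 for 25 members (7.65% of all genes). A stricter measure is used from here on. A gene is called raised in a double-mutant tumor where its log2(FPKM + 1) was at least 1 above the higher of both triple-mutant tumors, a threshold of size with no test. By it 17 members (37.8%) were raised in 26048, against 3.49% of all genes, and 24 (53.3%) in 26050, against 3.83% of all genes. At 2 log2 units the members were 7 in 26048 (15.6%, against 0.792% of all genes) and still 24 in 26050 (53.3%, against 0.918%). These 24 were 20.5% of the 117 genes of the whole genome that passed 2 log2 units in 26050, and the 7 were 6.93% of the 101 in 26048.

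The members raised in both double-mutant tumors numbered 9: Cav2, Met, Capza2, Naa38, Fam3c, Aass, Impdh1, Tnpo3 and Zc3hc1. A further 8 were raised in 26048 and not in 26050, and 15 in 26050 and not in 26048. The remaining 13 were raised in neither. Along the chromosome, neighbouring members switched between raised and not raised in 17 of 44 pairs in 26048 and in 18 of 44 in 26050.

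**Figure D1:**
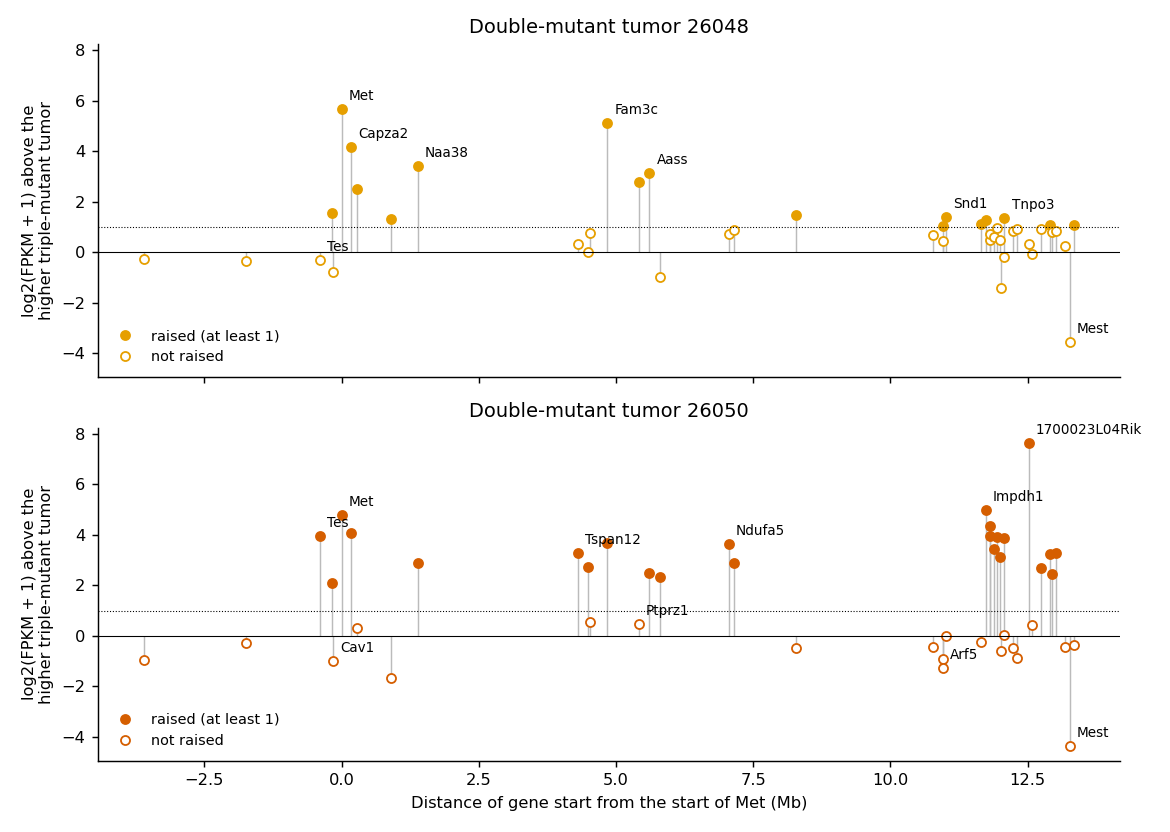
Each point is a member, placed by the distance of its start from that of Met in Mb, with its log2(FPKM + 1) above the higher triple-mutant tumor on the y axis, for tumor 26048 (top) and 26050 (bottom). Filled points are at 1 or above (dotted line): 17 of 45 in 26048, highest at Met and Fam3c, and 24 of 45 in 26050, where none lies between 0.56 and 2.08.

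The shape of the distribution differed between the tumors. In 26050 the raised and the other members left a gap: the lowest raised member, Cav2, was at 2.08 log2 units above the higher triple-mutant tumor, and the highest of the others, A430107O13Rik, at 0.56. Raised members of 26050 had a median of 12.47-fold the mean FPKM of the triple-mutant tumors (5.47- to 640-fold), and the others a median of 0.896-fold. The 640-fold is that of 1700023L04Rik, whose triple-mutant mean was only 0.530 FPKM. In 26048 there was no such gap. Gcc1, the lowest raised member, was at 1.06 and Ccdc136, the highest of the others, at 0.96, and 10 of the 17 raised members lay between 1 and 2. The raised members of 26048 had a median of 3.81-fold (2.25- to 105-fold) and the others 1.70-fold.

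The stretch that holds Met ran from Cav2 to Naa38 in 26048 (chr6:17281341-18854052, 1.57 Mb), with 6 of its 7 members raised, Cav1 being the exception. A stretch here is a run of raised members with at most 1 other member between them. In 26050 it ran from Tes to Capza2 (chr6:17065149-17666536, 0.601 Mb), with 4 of 5 raised and Cav1 again the exception. Its end rests on Cttnbp2, a low gene: with a filter of 5 FPKM, which leaves it out, the stretch held 12 raised members. Just outside, Tes was not raised in 26048, and Mdfic and St7 were not raised in 26050.

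Met (chr6:17463957-17573980, plus strand) was at 13.2 and 0.661 FPKM in the triple-mutant tumors 26043 and 26044, and at 726 and 386 FPKM in the double-mutant tumors 26048 and 26050. The groups did not overlap, and the lower double-mutant value was far above the higher triple-mutant one. On the log2(FPKM + 1) scale the difference was 6.77 ± 1.10 (SE, n = 2 per genotype), the largest among the members. Tumor 26044, where Met was lowest, also had the lowest luminal marker sum. Against 26043 alone, the triple-mutant tumor with more Met, Met was 5.68 log2 units higher in 26048 and 4.77 higher in 26050. The part of luminal content in these differences was not tested.

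Capza2, 0.173 Mb beyond the start of Met, encodes an alpha subunit of the capping protein that closes the fast-growing ends of actin filaments. Its level was 76.7 and 44.5 FPKM in 26043 and 26044, and 1409.9 and 1295 FPKM in 26048 and 26050. The double-mutant tumors were nearly alike and far above the others, with a difference of 4.51 ± 0.36 log2 units (SE, n = 2 per genotype). Cav2, 0.183 Mb before Met, encodes a caveolin, a coat protein of caveolae that depends on caveolin-1. Its level was 47.4 and 26.8 FPKM in the triple-mutant tumors, and 141 and 203 FPKM in the double-mutant tumors, without overlap. Cav1, between Cav2 and Met, encodes the main structural protein of caveolae. It stood at 42.4 and 55.98 FPKM in the triple-mutant tumors, and at 32.3 and 27.6 FPKM in 26048 and 26050. So a gene lying between raised neighbours was lower in both double-mutant tumors, by 0.69 ± 0.29 log2 units (SE, n = 2 per genotype).

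The promoters of these neighbours are shown because Cav1 parted from Cav2, Met and Capza2 in the same short stretch. All are from RefSeq (GRCm38.p6), 300 bases of the plus strand from 250 before to 50 after the annotated start: Cav2 at chr6:17280935-17281234, Cav1 at chr6:17306085-17306384, Met at chr6:17463707-17464006 and Capza2 at chr6:17636760-17637059. Capitals mark the letters that matched 1 of 5 motifs on either strand: the GC box (GGGCGG), the CCAAT box named by its letters, the TATA box (TATAAA), the E-box (CACGTG) and the AP-1 motif (TGANTCA).
Cav2: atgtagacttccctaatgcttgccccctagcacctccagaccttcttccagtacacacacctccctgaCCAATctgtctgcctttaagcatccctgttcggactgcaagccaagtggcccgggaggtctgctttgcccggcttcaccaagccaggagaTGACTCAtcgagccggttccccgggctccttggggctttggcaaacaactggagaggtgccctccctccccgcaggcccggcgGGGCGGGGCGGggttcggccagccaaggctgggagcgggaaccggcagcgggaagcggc
Cav1: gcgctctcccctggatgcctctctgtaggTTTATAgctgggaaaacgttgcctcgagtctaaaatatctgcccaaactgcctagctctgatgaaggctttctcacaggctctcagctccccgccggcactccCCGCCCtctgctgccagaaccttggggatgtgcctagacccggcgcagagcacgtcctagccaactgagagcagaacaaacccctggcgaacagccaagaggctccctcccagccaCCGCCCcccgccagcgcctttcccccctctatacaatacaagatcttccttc
Met: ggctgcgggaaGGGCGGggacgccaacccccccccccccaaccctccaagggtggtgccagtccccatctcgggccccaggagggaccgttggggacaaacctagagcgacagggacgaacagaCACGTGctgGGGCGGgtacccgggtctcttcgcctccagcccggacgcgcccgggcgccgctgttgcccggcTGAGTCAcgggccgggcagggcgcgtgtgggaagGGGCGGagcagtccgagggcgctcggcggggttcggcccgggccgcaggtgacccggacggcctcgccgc
Capza2: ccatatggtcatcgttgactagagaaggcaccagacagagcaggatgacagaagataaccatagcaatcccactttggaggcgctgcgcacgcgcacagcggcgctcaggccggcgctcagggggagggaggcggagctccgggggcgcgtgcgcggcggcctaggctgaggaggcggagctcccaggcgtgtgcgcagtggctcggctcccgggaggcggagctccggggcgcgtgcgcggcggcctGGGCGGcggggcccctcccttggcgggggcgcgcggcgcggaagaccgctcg

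In these windows the Cav1 and Cav2 promoters held 2 GC boxes each. The Cav1 promoter also held a TATA box and 13 CpG dinucleotides, the fewest of the 4, and the Cav2 promoter held a CCAAT box, an AP-1 motif and 16 CpG. The Met promoter held 3 GC boxes, an E-box and an AP-1 motif among 34 CpG, and the Capza2 promoter a single GC box among 38. A promoter was found for all 45 members. The GC box was in 84.4% of them, in 62.8% of 11584 promoters of genes tested and in 35.7% of all 32851 promoters of the table. Among members raised in 26050 it was in 18 of 24, and among the others in 20 of 21. In 26048 the split ran the other way, with 15 of 17 raised members and 23 of 28 others. The CCAAT box was in 33.3% of members, 37.8% of promoters of genes tested and 37.4% of all promoters. In the same order the TATA box was in 4.44%, 7.23% and 13.6%, the E-box in 8.89%, 9.98% and 7.15%, and the AP-1 motif in 8.89%, 5.38% and 7.81%. These letter matches are a description of the windows only.

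Tes, which encodes a LIM-domain protein of focal adhesions, was at 51.4 and 23.6 FPKM in the triple-mutant tumors, 41.6 in 26048 and 801 in 26050. It was high in 26050 only among the 4 tumors. On the other side of Capza2, the membrane protein gene St7 was at 12.0 and 10.2 FPKM in the triple-mutant tumors, 71.9 in 26048 and 15.1 in 26050. Here 26048 alone stood out. Cttnbp2, which encodes a cortactin-binding protein, was at 1.33 and 2.40 FPKM in the triple-mutant tumors, 7.40 in 26048 and 0.0706 in 26050, where it was lowest.

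Naa38, at 1.38 Mb from Met, is an older name of the row. The GENCODE gene at its position is Lsm8, a subunit of the nuclear Lsm ring that binds U6 small nuclear RNA. It was at 66.8 and 62.9 FPKM in the triple-mutant tumors, and 730 and 494 FPKM in 26048 and 26050. The difference was 3.19 ± 0.31 log2 units (SE, n = 2 per genotype), and the groups were far apart.

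**Figure D2:**
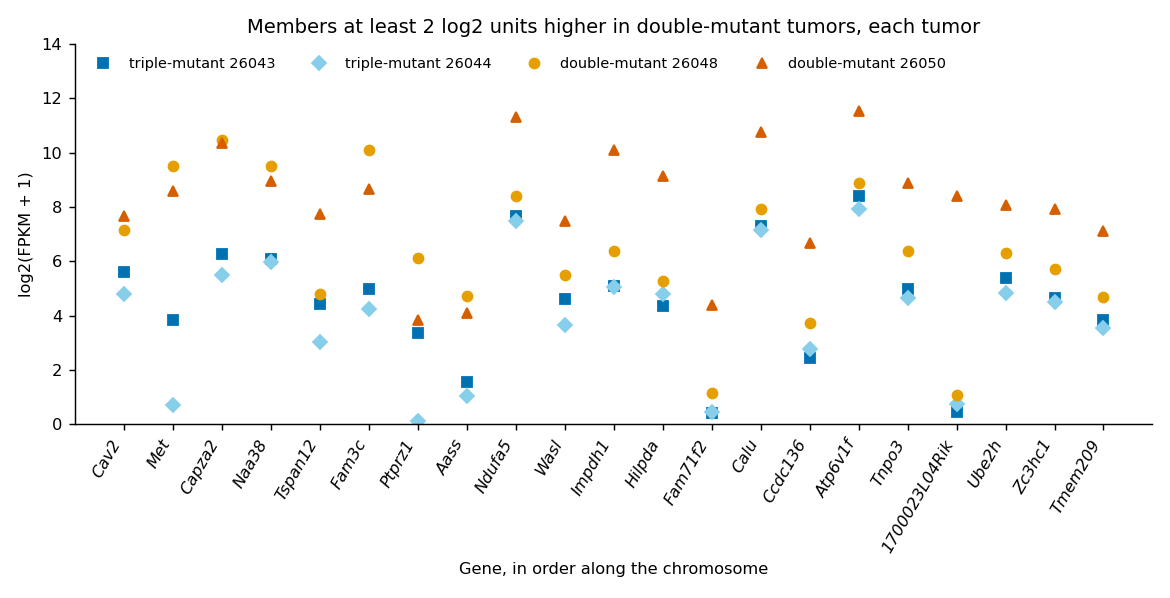
Log2(FPKM + 1) in each tumor for the 21 members at least 2 log2 units higher in double-mutant tumors without overlap, in chromosomal order. Each symbol is 1 tumor. By this choice both double-mutant tumors stand above both triple-mutant tumors at every gene. From Cav2 to Aass the highest tumor is 26048 at some genes and 26050 at others. From Ndufa5 on it is 26050 at every gene, with 26048 raised at Impdh1, Tnpo3 and Zc3hc1 only.

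In tumor 26050 the longest stretch ran from Naa38 to Wasl (chr6:18848635-24664995, 5.82 Mb) and held 8 raised members of 10. The folds of these 8 over the mean triple-mutant FPKM lay between 7.63 and 16.5. A430107O13Rik (Cped1 in GENCODE) and Ptprz1 were the exceptions. In 26048 the same part of the chromosome had a short stretch from Fam3c to Aass (chr6:22306522-23132986, 0.826 Mb), in which all 3 members were raised, by 14.9 to 44.8-fold.

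Fam3c encodes a secreted cytokine-like protein known for inducing epithelial-to-mesenchymal transition. Its level was 30.4 and 18.2 FPKM in the triple-mutant tumors, 1087 in 26048 and 401 in 26050. Both double-mutant tumors were high, 26048 more so, and the difference was 4.75 ± 0.59 log2 units (SE, n = 2 per genotype). Aass encodes the enzyme that opens lysine degradation in mitochondria. It was at 1.98 and 1.05 FPKM in the triple-mutant tumors, and 25.2 and 16.0 FPKM in the double-mutant tumors.

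Ptprz1, a receptor-type tyrosine phosphatase gene between Fam3c and Aass, was at 9.27 FPKM in 26043, 0.0905 in 26044, 69.5 in 26048 and 13.2 in 26050. The double-mutant tumors were both higher, but 26050 exceeded 26043 by only 0.47 log2 units. Cadps2, whose protein primes dense-core vesicles for release, came next on the chromosome, at 16.6, 0.539, 7.92 and 87.3 FPKM in 26043, 26044, 26048 and 26050. Both genes were very low in 26044, the tumor with the lowest luminal marker sum, and Cadps2 overlapped between genotypes.

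Tspan12, whose tetraspanin product aids Norrin and Frizzled-4 signaling, was at 20.8 and 7.25 FPKM in the triple-mutant tumors, 26.5 in 26048 and 213 in 26050. Ing3, a subunit gene of a histone acetyltransferase complex, was at 5.90, 3.81, 5.95 and 44.4 FPKM in the same order. Both were raised in 26050 alone. A430107O13Rik, next to Ing3, was at 0.772 and 0.796 FPKM in the triple-mutant tumors, and at 2.04 and 1.65 in the double-mutant tumors.

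Ndufa5, which encodes a subunit of respiratory complex I, was at 204 and 180.5 FPKM in the triple-mutant tumors, 337 in 26048 and 2576 in 26050. Wasl encodes N-WASP, which activates the Arp2/3 complex to branch actin filaments. It was at 23.3 and 11.5 FPKM in the triple-mutant tumors, 43.9 in 26048 and 178 in 26050. At both genes 26050 was far above the other 3 tumors and 26048 was second, below the threshold for a raised gene.

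Beyond Wasl the tumors parted. From Pot1a to Rbm28 none of the 6 members was raised in 26050, while 5 of 7 members of the stretch from Pot1a to Impdh1 (chr6:25743735-29212271, 3.47 Mb) were raised in 26048, by 2.50 to 3.10-fold. Pot1a, a telomere-protecting gene, was at 7.62 and 7.70 FPKM in the triple-mutant tumors, 23.5 in 26048 and 5.30 in 26050. Gcc1, a Golgi coiled-coil protein gene, was at 8.20, 3.96, 18.2 and 3.91 FPKM in 26043, 26044, 26048 and 26050. Snd1, a nuclease and RNA-binding protein gene, was at 117, 80.8, 306 and 117 FPKM in that order. The level of 26048 was highest at all 3. Rbm28, which acts in ribosome assembly, was at 15.3, 9.29, 34.0 and 12.9 FPKM. There too 26048 was highest, and at all of these genes 26050 lay below or level with the higher triple-mutant tumor.

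The order then turned within a single pair of neighbours. Rbm28 was not raised in 26050, and Impdh1, 0.0769 Mb further on by its start, was among its highest. Impdh1 encodes a rate-limiting enzyme of guanine nucleotide synthesis. It was at 33.6 and 32.4 FPKM in the triple-mutant tumors, 82.4 in 26048 and 1084 in 26050. The difference of means, 3.14 ± 1.25 log2 units (SE, n = 2 per genotype), had a wide error because the double-mutant tumors were 3.70 log2 units apart.

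From Impdh1 to Atp6v1f (chr6:29200440-29470509, 0.270 Mb) all 6 members were raised in 26050, by 10.1 to 55.7-fold. The highest fold was that of Fam71f2, over a triple-mutant mean of only 0.358 FPKM. Hilpda, a lipid droplet protein gene, was at 19.3 and 26.8 FPKM in the triple-mutant tumors, 37.9 in 26048 and 566 in 26050. Fam71f2 was at 0.354, 0.362, 1.23 and 19.9 FPKM in the order used above. Calu encodes calumenin, a calcium-binding protein of the endoplasmic reticulum. It was at 158 and 142 FPKM in the triple-mutant tumors, 245 in 26048 and 1718 in 26050. The coiled-coil protein gene Ccdc136 was at 4.46, 5.85, 12.4 and 102 FPKM. Atp6v1f, a subunit gene of the vacuolar proton pump, reached 2940.2 FPKM in 26050, against 472 in 26048 and 340.0 and 244 in the triple-mutant tumors. In this block 26050 was highest at every gene, and 26048 was second at every gene.

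Kcp and Irf5, which came next, were not raised in either tumor. Kcp, a regulator of bone morphogenetic protein signaling, was at 0.145, 2.53, 0.344 and 1.33 FPKM. Irf5, an interferon regulatory factor gene, was at 6.57, 3.14, 5.71 and 6.68 FPKM. Tnpo3, the importin that carries splicing factors into the nucleus, was raised alone between such neighbours, at 30.9 and 24.3 FPKM in the triple-mutant tumors, 81.7 in 26048 and 467 in 26050. Tspan33 followed at 6.61, 5.05, 12.6 and 4.52 FPKM, and Ahcyl2 at 9.44, 7.27, 18.5 and 4.68 FPKM, in both cases with 26050 the lowest tumor.

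The last stretch of 26050 ran from 1700023L04Rik to Tmem209 (chr6:29985329-30509706, 0.524 Mb), with 5 of 6 members raised and Nrf1 the exception. 1700023L04Rik, a non-coding row at the GENCODE gene Smkr-ps, was at 0.358 and 0.701 FPKM in the triple-mutant tumors, 1.15 in 26048 and 339 in 26050. This was 640-fold the triple-mutant mean of 0.530 FPKM, a mean under the level for membership, so the size of the fold is uncertain. The double-mutant tumors were 7.31 log2 units apart, the widest gap within a genotype among the members. Tes (4.24 log2 units) and Hilpda (3.87) followed, in each case with 26050 higher. Nrf1, a transcription factor of nuclear genes for mitochondria, was at 14.1, 12.8, 13.6 and 19.5 FPKM.

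Other members of that stretch serve protein turnover or the nuclear envelope. Ube2h, a ubiquitin-conjugating enzyme gene, was at 40.9 and 27.8 FPKM in the triple-mutant tumors, 79.2 in 26048 and 270.1 in 26050. Zc3hc1 was at 24.4, 22.0, 52.2 and 241 FPKM, and the nuclear envelope gene Tmem209 at 13.3, 10.6, 25.1 and 139 FPKM. Klhdc10, a substrate receptor of a ubiquitin ligase, was at 19.9, 13.0, 35.0 and 112 FPKM. Zc3hc1 alone of these was raised in 26048 as well, at 1.06 log2 units.

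At the far end Tsga14 (Cep41 in GENCODE), a centrosomal protein gene, was at 2.77, 2.37, 3.53 and 1.76 FPKM. Mest, the imprinted gene expressed from the paternal allele, was at 95.5 and 144 FPKM in the triple-mutant tumors, and at 11.2 and 6.13 FPKM in the double-mutant tumors. It differed by -3.66 ± 0.41 log2 units (SE, n = 2 per genotype), the largest difference toward triple-mutant tumors among the members, followed by Cav1 (-0.69) and Kcp (-0.18, with overlap). Copg2, which encodes a coat protein of retrograde Golgi vesicles and is the last member, was at 28.1 and 20.96 FPKM in the triple-mutant tumors, 59.7 in 26048 and 22.0 in 26050. Mest was thus lower in both double-mutant tumors, while neither of its neighbours was.

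At the near end, the members before Tes were not raised. 2610001J05Rik was at 18.6, 8.74, 15.2 and 9.02 FPKM, and Mdfic, a regulator of transcription factors, at 12.1, 6.61, 9.44 and 9.73 FPKM. Both overlapped between genotypes. The other members raised in neither tumor were Zfp800, at 1.56 to 6.26 FPKM, and the Golgi GTPase gene Arf5, at 122 to 405 FPKM.

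**Figure D3:**
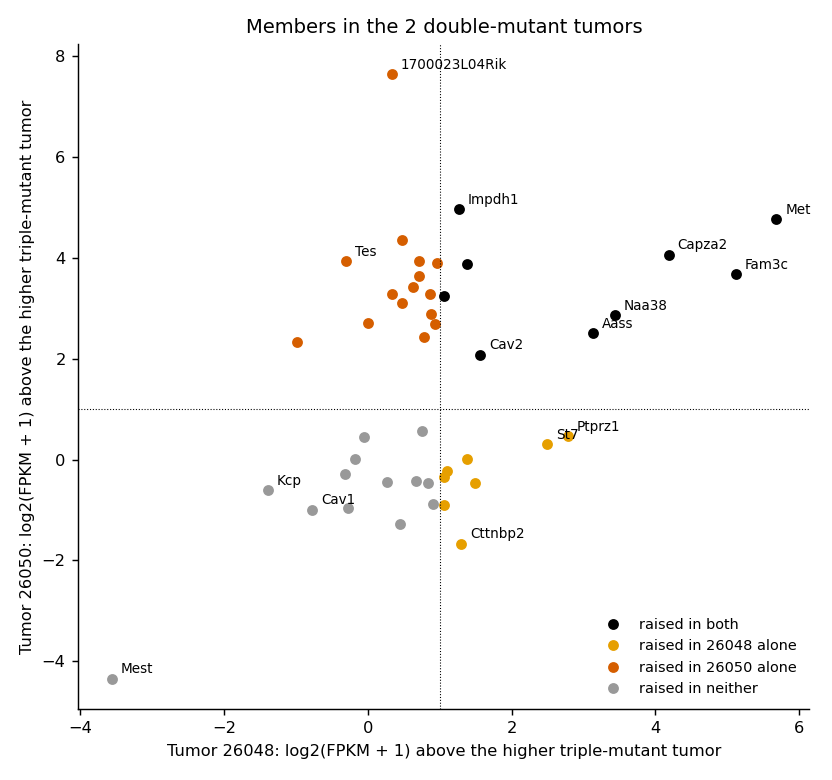
Members by their log2(FPKM + 1) above the higher triple-mutant tumor in 26048 (x axis) and 26050 (y axis); dotted lines mark the threshold of 1. Of the members 9 are raised in both, 8 in 26048 alone, 15 in 26050 alone and 13 in neither, and Mest lies at the lower left with -3.56 and -4.34.

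Members raised in both tumors had medians of 3.41 log2 units over the mean triple-mutant level in 26048 and 4.03 in 26050. Those raised in 26048 alone had medians of 1.54 and -0.02, and those raised in 26050 alone 0.78 and 3.74. The median absolute difference between the double-mutant tumors was 1.76 log2 units over the members and 0.36 over all genes tested. Between the triple-mutant tumors it was 0.53 and 0.45.

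Grouped by broad and loosely drawn roles, the members raised in 26050 came from most groups. They were 6 of 8 members for caveolae, actin and adhesion and 4 of 5 for metabolism and mitochondria. For receptors and signaling they were 4 of 6, and for ubiquitin and protein turnover 4 of 4. The share was 53.3% over all members and 3.83% over all genes tested. In 26048 the same groups had 3 of 8, 2 of 5, 3 of 6 and 1 of 4, against 37.8% of members and 3.49% of all genes. The groups are small and were not tested. The group of caveolae, actin and adhesion also took in Cadps2 and Ccdc136. Fam71f2 was counted with receptors and signaling, and the nuclear envelope gene Tmem209 with ubiquitin and protein turnover. In RNA and translation 3 of 4 were raised in 26048 and 1 of 4 in 26050, and in transcription and chromatin 1 of 6 in each. In trafficking and secretion it was 4 of 7 in 26048 and 3 of 7 in 26050.

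Genes of the same pathways or complexes, most encoded outside the interval and some of them on chromosome 6, are set here beside all genes tested. Of all genes tested 22.9% were higher in both double-mutant tumors and 21.3% in both triple-mutant tumors, with 3.49% raised in 26048 and 3.83% in 26050. The lists are small, and counts near these shares say nothing particular about them. Of 37 genes of Met signaling 34 were tested, and the model called 0. Both double-mutant tumors were higher for 6 of 34 and both triple-mutant tumors for 8 of 34, near the shares of all genes, with a median difference of 0.08 log2 units. Apart from Met itself, 0 of 33 were raised in 26048 and 1 of 33 in 26050, Plaur, the urokinase receptor gene, at 6.91 and 8.36 FPKM in the triple-mutant tumors, 17.1 in 26048 and 37.8 in 26050. Hgf, the ligand gene, was at or under 0.484 FPKM in every tumor. Mst1, the ligand gene of the related receptor Ron, was at 7.55 and 4.79 FPKM in the triple-mutant tumors, and 0.0227 and 0.0449 in the double-mutant tumors. Plau, the urokinase gene, was at 36.2 and 99.0 FPKM in the triple-mutant tumors, and 11.7 and 16.3 in the double-mutant tumors.

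Among 10 tested genes of caveolae (0 called), Cav2 was the only 1 higher in both double-mutant tumors (22.9% of all genes), both triple-mutant tumors lay above for 3 (21.3% of all genes), and the median difference was -0.48. Of the 8 that were no members, 0 were raised in either tumor. Ehd2, which sits at the neck of caveolae, was at 37.3 and 47.1 FPKM in the triple-mutant tumors, and 32.9 and 8.35 in 26048 and 26050. Ptrf, the cavin-1 gene, was at 18.5, 65.2, 20.97 and 12.6 FPKM.

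Of 27 tested genes of actin capping, Arp2/3 and related proteins (0 called), 8 were higher in both double-mutant tumors (22.9% of all genes) and 1 in both triple-mutant tumors (21.3% of all genes), with a median of 0.30. Apart from the members Capza2, Wasl and Tes, 3 of 24 were raised in 26048 (Enah, Zyx and Wipf3) and 1 of 24 in 26050 (Enah). Zyx (chr6:42349828-42358395) and Wipf3 (chr6:54452883-54503768) also lie on chromosome 6, beyond the interval, in parts described below. Enah lies on chromosome 1. Capza1, the other alpha subunit of the capping protein, was at 56.3, 45.8, 49.0 and 62.9 FPKM, and the beta subunit gene Capzb at 137, 173, 121 and 149.7 FPKM. Neither was raised. Enah, an actin elongation factor gene and no member, was raised in both double-mutant tumors, at 15.2 and 3.29 FPKM in the triple-mutant tumors and 34.4 and 40.4 in the double-mutant tumors.

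Of 23 genes of the Lsm and Sm rings (0 called), 7 were higher in both double-mutant tumors (22.9% of all genes) and 4 in both triple-mutant tumors (21.3% of all genes), with a median of -0.03. Apart from Naa38, 0 of 22 were raised in either tumor. Lsm12 was at 37.7, 21.5, 53.1 and 52.1 FPKM, and Snrpd3 at 291, 1306, 200.4 and 258 FPKM.

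A set of 6 smaller families was picked after the values of the members were seen. None of the 11 other Ndufa subunits of complex I was raised in either tumor, the highest at 0.36 log2 units in 26048 and -0.10 in 26050. Impdh2, the other inosine monophosphate dehydrogenase gene, was at 159, 292, 162 and 115 FPKM. Fam3a was at 21.7, 22.6, 16.0 and 14.9 FPKM. The transportin genes Tnpo1 and Tnpo2 were at most 0.88 log2 units above the higher triple-mutant tumor, and of 4 relatives of Calu the highest was at 0.22. In the remaining family, the soluble part of the proton pump, 1 of 10 other subunits was raised in both tumors. This was Atp6v1c2, at 17.8 and 3.12 FPKM in the triple-mutant tumors, and 210 and 83.3 in the double-mutant tumors.

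**Figure D4:**
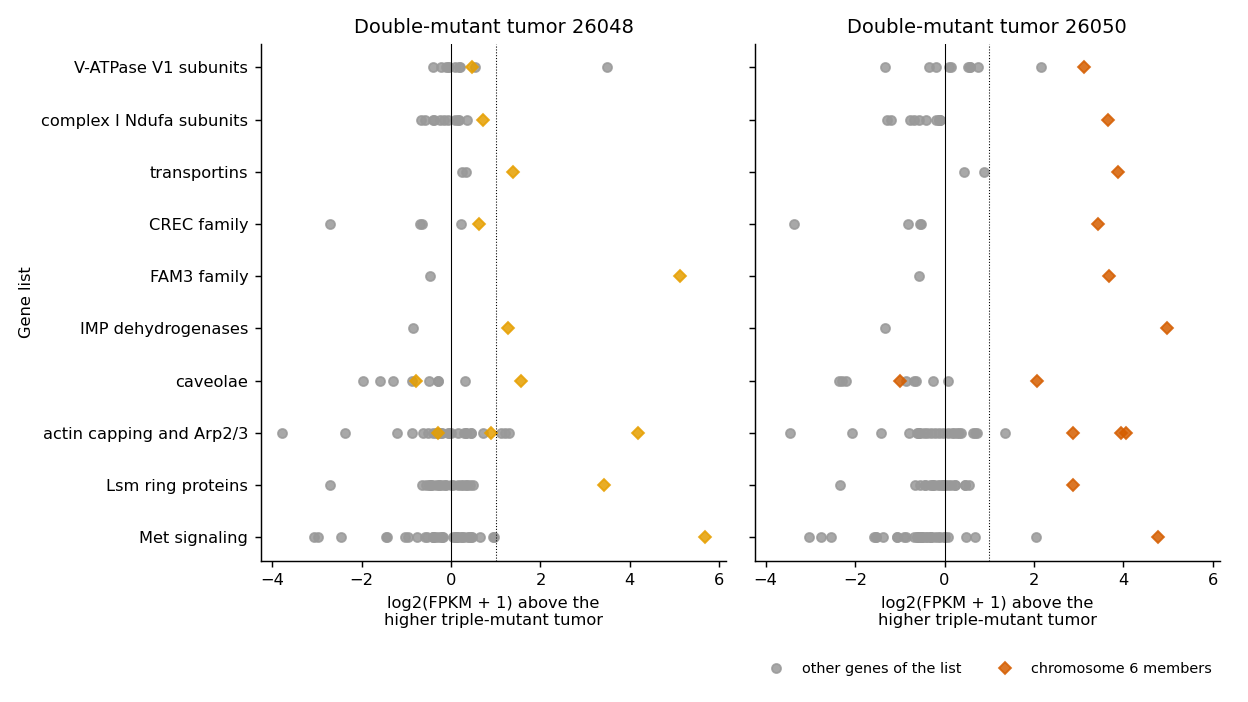
Members (diamonds) and the other tested genes of their families, complexes or pathway (grey circles), as log2(FPKM + 1) above the higher triple-mutant tumor in 26048 (left) and 26050 (right). In 26050 the members lie at 2.08 or more, except Cav1 at -0.99, and the other genes lie below 1 except Plaur, Atp6v1c2 and Enah.

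Along the whole of chromosome 6, members included, the tumors differed as well. In bins of 5 Mb, the median log2 difference of 26050 from the mean of the triple-mutant tumors was 2.48 between 15 and 20 Mb and 3.36 between 20 and 25 Mb. It was 0.36 between 25 and 30 Mb, and between -0.75 and 0.21 in all bins outside 15 to 30 Mb. For 26048 it was 1.96, 1.04 and 1.04 in those 3 bins, and it remained at 0.94, 0.81 and 0.83 in the next 3 bins, up to 45 Mb. Further bins of 26048 stood at 1.32 (50 to 55 Mb, 29 genes) and 2.27 (65 to 70 Mb, 9 genes).

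In the 10 Mb after the interval 10 of 47 genes were raised in 26048, among them Cald1, Braf and Exoc4, and 0 of 47 in 26050. Before the interval 4 of 29 were raised in 26048 and 3 of 29 in 26050, with Col1a2, a fibroblast marker, in both. Of all genes tested 3.49% were raised in 26048 and 3.83% in 26050. No DNA measurement was used here.

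**Figure D5:**
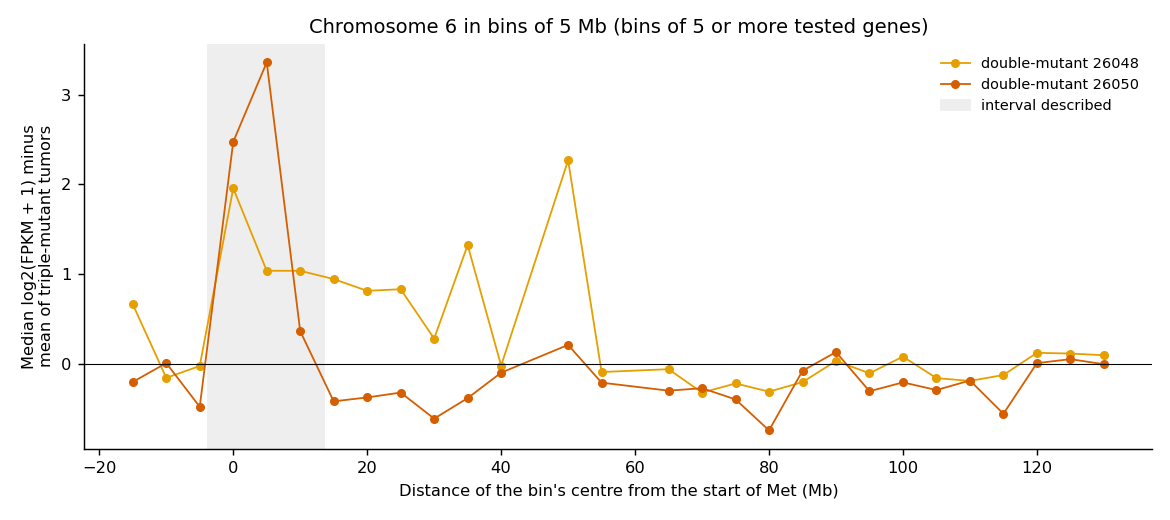
Median log2(FPKM + 1) minus the mean of the triple-mutant tumors, in bins of 5 Mb of chromosome 6 against distance from the start of Met, for both double-mutant tumors; grey marks the interval of the members. Tumor 26050 is high in 2 bins of the interval (2.48 and 3.36) and near or below 0 beyond it, while 26048 stays at 0.81 or more for 3 further bins.

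The level of 1 FPKM that admitted members fell among low genes. Just inside it were 1700023L04Rik, Fam71f2 and Kcp, whose second-highest tumor was at 1.15, 1.23 and 1.33 FPKM. Just outside were Tmem229a, Flnc and BB283400, whose second-highest tumor was at 0.891, 0.887 and 0.756 FPKM. Of the 48 rows below the level, 11 reached 1 FPKM in 26050 alone, 2 in 26048 alone and 1 in 26043 alone. In every tumor 8 rows were listed at 0, 6 of them microRNAs, whose short mature forms such libraries do not capture.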

How the data were processed

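PolyA-selected RNA of 4 mammary tumors was sequenced as single-end reads. The authors aligned the reads to mm10 and estimated FPKM per gene, and these FPKM values were used as deposited. The read counts on which the study ran its own test were not used here, and a model on FPKM took its place. The submitters' processing notes name TopHat2 2.0.10, Bowtie 0.12.9 and Cufflinks 2.1.1. How reads of several positions or of overlapping genes were assigned, and whether strand was used, is not given in the sources used here. The low FPKM values showed no clear steps of a single read, so depth is unknown and no counting interval is given. The Cufflinks interval was not used, because 24 to 28 of the 45 members lay outside their own interval in each tumor. The number of tumors limits the precision. The labels number each tumor but give no batch. The p-values set the difference between genotypes against the spread between tumors of the same genotype, moderated across all genes tested.

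Rows reaching 1 FPKM in 2 or more tumors were tested on log2(FPKM + 1) with limma 3.58.1 (R 4.3.3; lmFit, eBayes with trend) and Benjamini-Hochberg adjustment over all of them. Differences on this scale understate the change of low genes. The script was tested on simulated data. Tables were made with Python 3.11.15, pandas 2.3.3 and numpy 2.4.6, and figures with matplotlib 3.10.9. Table starts were shifted by 1 base. Of the members, 41 had the same symbol in GENCODE M21 (GRCm38) and 4 another, and 44 were protein-coding.

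The members, lists and rules were chosen with earlier results of these data known. The small families were picked after seeing the members' values. Named with values were Met, members differing by at least 2 log2 units without overlap, the ends of each stretch and the members beside them, the 3 largest differences toward triple-mutant tumors and within a genotype, members beside the FPKM level, the leading members of role groups, and the 3 leading genes of each list. Members outside this rule were named to account for all 45, and some list genes, such as Capza1, were chosen after their values were seen. Alternatives were a pseudocount of 0.1, a filter of 5 FPKM, no filter, TPM scaling, quantile normalization, eBayes without trend, rows of status OK, leaving out each tumor and, added after seeing the data, a threshold of 2 log2 units and median centring.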

Additional observations from a re-analysis of the deposited data

Results flagged for a closer look

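Of the rows of the interval that missed the level for membership, and so entered no comparison, 2 reached 1 FPKM in 26048 alone and were raised there, and 8 did so in 26050. Of these, 3 were at least 2 log2 units above the higher triple-mutant tumor. Cftr, the chloride channel gene 0.707 Mb from Met, was at 34.0 FPKM in 26048, against 0.327 and 0.00682 in 26043 and 26044 and 0.0158 in 26050. Flnc, a filamin gene of muscle, was at 16.7 FPKM in 26050, against 0.314, 0.887 and 0.854 in 26043, 26044 and 26048. Fam71f1 was at 12.2 FPKM in 26050, against 0.0250, 0.0527 and 0.102 in the same tumors. The 3 muscle markers Ckm, Myh4 and Actn3 were highest in 26050 too, with a sum of 4.99 FPKM, and their part in the level of Flnc was not tested. With 1 tumor each, these values have no replicate check.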

How the results depend on the processing

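Of 171 values recomputed under an alternative, 149 stayed within 1.5 times the reported count or within 1 SD of the reported median, and 22 moved. The 149 include the counts of genes called by the model, reported as 0 and scored as unchanged where they stayed 0. With so few tumors those counts say little about stability. The model called 0 members under every alternative that was run. Members at least 1 log2 unit above the other genotype in 26044 were 3 with a pseudocount of 0.1 and 2 with TPM scaling, quantile normalization or median centring, against 1. With a filter of 5 FPKM the stretch of 26050 that holds Met had 12 raised members against 4, since Cttnbp2 was filtered out and St7 alone then stood between raised members. Without a filter, triple-mutant tumors were higher for 4 members against 2, the median difference was 0.52 against 2.03, and 2 caveolae genes were higher in double-mutant tumors against 1. At least 2 log2 units above the mean of the other genotype in 26048 were 7 members, against 25 at 1 log2 unit.

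Leaving out 1 tumor at a time makes non-overlap easier by construction, since fewer tumors must agree. Members with double-mutant tumors higher then numbered 27 to 36 and those with triple-mutant tumors higher 2 to 9 (9 without 26048, 4 without 26044). The median difference was 1.07 without 26050 and 2.73 without 26048. The longest stretch of 26048 held 6 to 12 raised members (12 without 26043). Genes higher in double-mutant tumors numbered 6 to 18 in Met signaling (18 without 26043), 2 to 3 in caveolae, 11 to 17 in the actin list (17 without 26043) and 9 to 10 in the Lsm list. Of 398 differences of named genes, 22 changed sign, in 13 genes whose reported difference was at most 0.56 log2 units. No paired analysis was possible because the labels give the genotypes no shared replicate numbers and do not say which tumors came from the same litter.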
